A study of Mus musculus with 12 samples.

Results

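Enzymes of glycolysis, of lactate and pyruvate handling and of the pentose phosphate pathway were followed in follicular B cells stimulated through the B cell receptor. The group was set by name as 33 listed genes: hexokinases, phosphofructokinases and their activators, the enzymes from aldolase to pyruvate kinase, lactate dehydrogenases, the pyruvate dehydrogenase E1 alpha subunit with its kinases, the pentose phosphate enzymes, and Hif1a. Where several probe sets carried a gene's symbol and no other, the one that was brightest on average over the 12 arrays stood for the gene. That gave 29 measured members among 18193 genes. Gapdh had 3 probe sets in the annotation used here, each listed with other genes as well, so no value is given for it. Gpi1, Eno1 and G6pdx were not analysed here.

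The cells came from the spleens of mice 6 weeks old on a C57Bl/6 background, and were sorted as B220-positive, CD23-high, CD21-low cells at a purity above 98%. Mice carried either the IkL/L alleles of Ikzf1, which encodes the transcription factor Ikaros, or the wild-type (WT) alleles. As background, IkL is a hypomorphic allele made by inserting a reporter, so the cells keep some Ikaros protein. For each genotype there were 3 groups of 2 arrays: cells cultured for 3 h without stimulus, cells cultured for 3 h with 10 µg/ml of anti-IgM F(ab')2 fragments, and cells cultured for 12 h with the same agent. Hence n = 2 per group throughout, no culture of 12 h without stimulus was compared, and the 3 h and 12 h comparisons of a genotype share its unstimulated arrays. The design text gives 2 separate experiments, but the labels do not say which array belongs to which or how many mice each took, so the p-values cover only how far these arrays spread.

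Glycolysis splits glucose into pyruvate in the cytosol and yields ATP quickly, and lactate dehydrogenase turns pyruvate into lactate so that the pathway can go on. The pentose phosphate pathway branches off at glucose 6-phosphate and gives NADPH and ribose for lipid and nucleotide synthesis. Resting B cells use little glucose, and B cells that are driven to grow and divide through their receptor are known to take up more of it. Factors known to act on many of these genes include Myc, which binds E-boxes, and the hypoxia-inducible factor HIF, whose subunit Hif1a is encoded by a member of the group.

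The values are log2 signals, so a difference of 1 is a 2-fold difference. Array medians lay between 3.12 and 3.21, and signals under 4.21, which is 1 above the highest median, were treated as near the floor of detection. On that scale 22 members were above the floor on all 12 arrays, Hk3, Pfkm and Pdk2 were under it on all 12, and Pfkfb4, Aldoc, Eno2 and Ldhb were under it on some. Rose, fell and changed are used of genes whose limma p, adjusted over all genes of a comparison, was under 0.05. Across genes, the 2 arrays of each group correlated at 0.99 to 0.994. Follicular B cell markers were above the floor on every array for 7 of 7 measured genes (Cd79a, Cd79b, Ms4a1, Fcer2a, Cd22, Pax5 and Ebf1). Their mean signal per array was 9.67 to 9.72 in unstimulated IkL/L cells, 8.08 to 8.36 at 3 h and 8.01 to 8.53 at 12 h. In WT cells it was 10.0 to 10.2 without stimulus, 8.73 to 9.01 at 3 h and 8.70 to 8.81 at 12 h, and its part in the results was not tested. Among T cell markers 5 of 7 were under the floor on all 12 arrays, as were 3 of 7 myeloid, 3 of 3 NK cell, 3 of 4 erythroid and platelet and 2 of 4 dendritic cell markers, and none of the 5 plasma cell or 5 marginal zone B cell markers. The mean signal of the myeloid list was 3.65 to 4.42 on the IkL/L arrays and 3.21 to 4.61 on the WT arrays. Its member S100a8 was higher in replicate 2 than in replicate 1 of every group, at 6.35 to 6.80 against 4.44 to 5.10 in IkL/L cells and at 5.59 to 7.25 against 3.42 to 3.80 in WT cells. The dendritic list averaged 3.88 to 4.73 on the IkL/L arrays and 3.54 to 4.10 on the WT arrays. Its members Flt3 and Zbtb46 were above the floor on all 6 IkL/L arrays and on 4 and 5 of the 6 WT arrays. The plasma cell list averaged 5.96 to 6.97 on the IkL/L arrays and 6.05 to 7.18 on the WT arrays. Its member Jchain had 6.90 to 8.68 in IkL/L replicate 2, 4.28 to 5.72 in IkL/L replicate 1 and 3.6 to 7.0 on the WT arrays. Sdc1 and Prdm1 were under the floor on all IkL/L arrays, at 2.33 to 3.43 and 2.89 to 3.40. On the WT arrays they had 3.45 to 6.6 and 3.035 to 4.93. Xbp1 had 8.84 to 9.9 on the IkL/L arrays and 8.29 to 9.43 on the WT arrays, and Irf4 9.95 to 12.1 and 9.97 to 12.0. The marginal zone list averaged 6.56 to 7.46 on the IkL/L arrays and 6.34 to 7.19 on the WT arrays. Its member Cd9 had 7.69 to 9.15 on the IkL/L arrays and 5.56 to 6.24 on the WT arrays. Other members did not share that direction. At 3 h Cr2 had 7.86 and 7.79 in IkL/L cells and 8.49 and 8.06 in WT cells. Dtx1 had 8.14 and 7.74 in IkL/L cells and 8.78 and 9.28 in WT cells at 3 h, and was also lower in unstimulated IkL/L cells. Cr2 without stimulus, Cr2 and Dtx1 at 12 h and Cd1d1 in every condition overlapped between the genotypes. S1pr3 overlapped at 3 h and 12 h and was under the floor without stimulus. The part of these markers in the results was not tested. In these bulk samples fewer cells of a type and less RNA per cell cannot be told apart. The 3 arrays of WT replicate 1 had Xist signals of 10.0 to 10.7 and the other 9 arrays 3.19 to 3.48, and Xist is expressed by female cells. The Y-linked Eif2s3y was at 2.41 to 2.83 on those 3 arrays and 8.29 to 9.24 on the other 9. Pgk1, Pdk3 and Pdha1 lie on the X chromosome. Ikzf1 itself had signals of 8.08 to 10.0 on the IkL/L arrays and 8.93 to 10.3 on the WT arrays. The sources used here do not say where its probes lie relative to the changed part of the allele, so this level checks no label.

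Promoter sequence is shown for 3 of the 6 members that rose by 3 h in both genotypes (Hk2, Pgam1 and Ldha) and for 1 that rose later (Pgk1). Each window is the 250 bases before the gene's start in RefSeq on build GRCm38.p6, read 5′ to 3′ on the gene's strand. Capitals mark the E-box CACGTG and the HIF core in its forms ACGTG and GCGTG, searched on both strands, so a core on the opposite strand appears as CACGT or CACGC. Every CACGTG also holds ACGTG on each strand.
Hk2, chr6:82774455-82774704, minus strand: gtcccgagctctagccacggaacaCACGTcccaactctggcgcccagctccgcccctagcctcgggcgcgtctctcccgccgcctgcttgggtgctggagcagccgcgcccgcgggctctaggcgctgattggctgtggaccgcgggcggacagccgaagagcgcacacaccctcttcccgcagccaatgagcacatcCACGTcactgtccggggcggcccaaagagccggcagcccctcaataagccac
Pgam1, chr19:41911621-41911870, plus strand: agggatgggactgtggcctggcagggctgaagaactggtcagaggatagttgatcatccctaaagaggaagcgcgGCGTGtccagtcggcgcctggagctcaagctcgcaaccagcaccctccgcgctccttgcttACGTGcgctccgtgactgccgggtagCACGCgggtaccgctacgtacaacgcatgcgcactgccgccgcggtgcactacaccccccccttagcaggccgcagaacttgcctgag
Ldha, chr7:46845554-46845803, plus strand: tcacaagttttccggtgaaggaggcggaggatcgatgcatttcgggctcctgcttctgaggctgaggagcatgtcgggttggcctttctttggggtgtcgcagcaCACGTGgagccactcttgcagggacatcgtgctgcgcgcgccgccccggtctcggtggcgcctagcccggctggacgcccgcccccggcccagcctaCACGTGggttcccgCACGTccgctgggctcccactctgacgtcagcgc
Pgk1, chrX:106186850-106187099, plus strand: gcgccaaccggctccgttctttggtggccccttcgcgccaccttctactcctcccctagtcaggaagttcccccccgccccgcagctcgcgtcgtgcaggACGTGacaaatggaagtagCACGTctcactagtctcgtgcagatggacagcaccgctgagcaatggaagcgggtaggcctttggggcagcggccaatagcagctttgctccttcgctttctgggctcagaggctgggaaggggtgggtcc

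The Ldha window shown holds 2 E-boxes, whose first bases lie at -145 and -48 from the start. A second Ldha window, at another start, has no E-box and no ACGTG, and 1 GCGTG at -59. The Hk2 window has 2 matches to ACGTG at -226 and -52 and no E-box, and Pgk1 has 2 at -150 and -131. All 29 members matched the RefSeq table. An E-box was present in a window of 5 of the 29 members (Pfkm, Pfkfb3, Ldha, Pdk2 and Hif1a), and 6.86% of 27025 genes in the table had one. ACGTG was present for 12 members and 18.5% of all genes, and GCGTG for 19 members and 30.9% of all genes. The core TGGGAA, which Ikaros is known to bind, was present for 6 members (Aldoc, Pgk1, Eno3, Pdk3, Pdha1 and Rpia) and 24.1% of all genes. The median GC content was 59.4% over the members' 42 windows and 52.4% over all 32851 windows. Of the members that rose by 3 h in both genotypes and are not shown, Pfkp and Tkt had GCGTG alone and Eno2 had none of these motifs. Tpi1, which rose at 12 h, had none of these motifs in its window, and a match describes letters only.

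After 3 h of anti-IgM a few enzymes spread along the pathway had changed. In IkL/L cells 6 of 29 members rose (9.82% of all genes rose) and 5 fell (10.6% of all genes fell). In WT cells 7 of 29 rose (9.15% of all genes) and 4 fell (10.2% of all genes). The 6 that rose in IkL/L cells, Hk2, Pfkp, Pgam1, Eno2, Ldha and Tkt, all rose in WT cells too, where Ldhb was the seventh. After 12 h 14 members rose (9.72% of all genes) and 0 fell (7.87% of all genes) in IkL/L cells, while 15 rose (10.1% of all genes) and 3 fell (8.66% of all genes) in WT cells. The rise at 12 h was shared by 13 members: Hk2, Pfkp, Pfkfb3, Aldoa, Aldoc, Tpi1, Pgk1, Pgam1, Eno3, Pkm, Ldha, Pdk3 and Tkt. The median difference over the 29 members was 0.10 in IkL/L cells and 0.19 in WT cells at 3 h, against -0.03 and 0.02 over all genes, and at 12 h it was 0.49 in IkL/L cells and 0.51 in WT cells, against 0.02 and 0.05 over all genes.

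**Figure D1:**
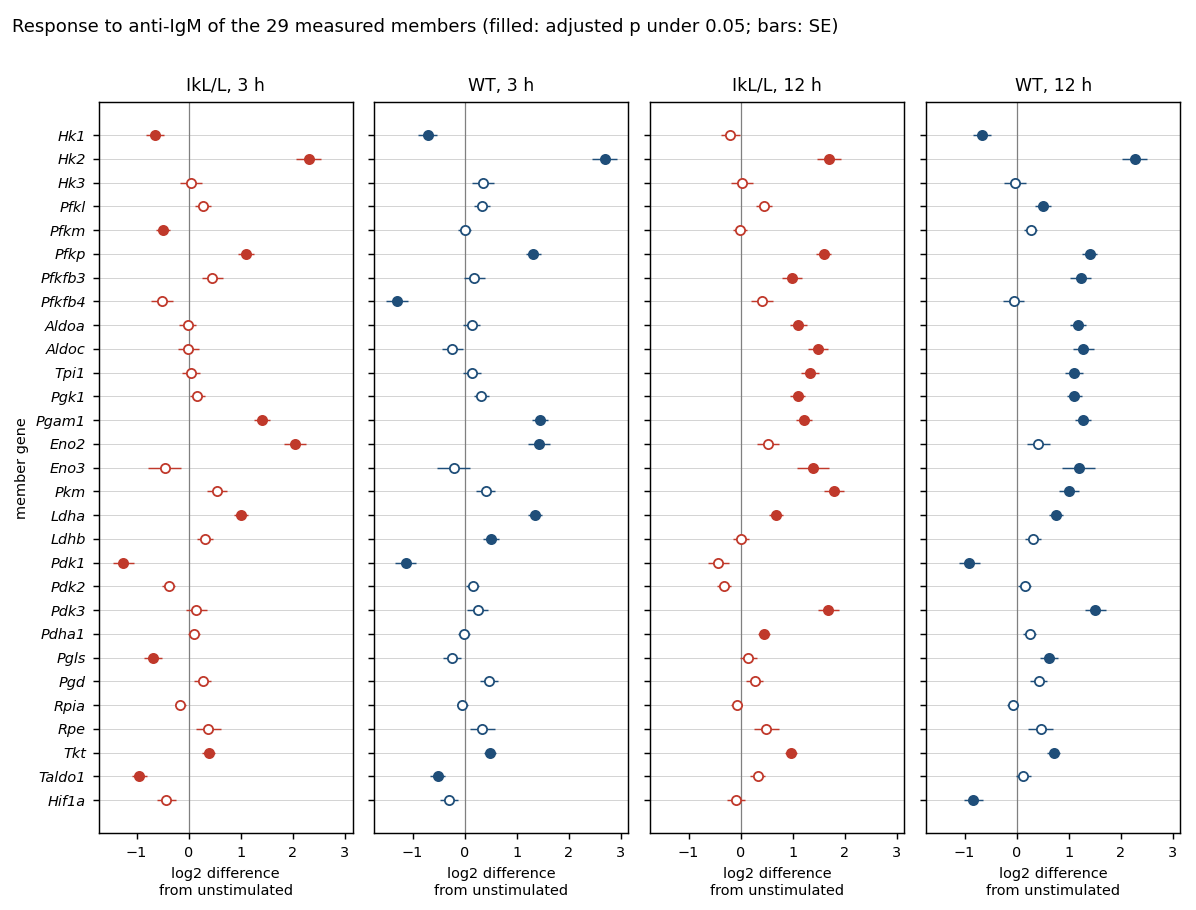
Log2 difference from unstimulated cells (horizontal axis) for each of the 29 measured members (rows, in pathway order) in IkL/L and WT cells at 3 h and at 12 h of anti-IgM. Points are limma estimates from 2 arrays per group, bars are standard errors, and filled points pass an adjusted p of 0.05. At 12 h the filled points are 14 rises in IkL/L cells, and 15 rises and 3 falls in WT cells.

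Hk2, which phosphorylates glucose on entry, had the largest rise of the group at 3 h in both genotypes. Its signals were 6.84 and 7.31 in unstimulated IkL/L cells, 9.44 and 9.32 after 3 h and 8.63 and 8.92 after 12 h. In WT cells they were 6.36 and 5.77, 8.99 and 8.51, and 8.23 and 8.44 in the same order of conditions. Every stimulated array was above every unstimulated array of its genotype. The 3 h level was 4.95-fold higher than unstimulated in IkL/L cells (log2 difference 2.31, SE 0.24, adjusted p = 0.000104 in limma) and 6.45-fold higher in WT cells (2.69, SE 0.24, adjusted p = 4.93e-05). At 12 h the rise stood at 3.25-fold in IkL/L cells (adjusted p = 0.000861) and 4.83-fold in WT cells (adjusted p = 0.000135).

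Hk1, a widely expressed hexokinase, moved the other way. It had 5.61 and 5.30 in unstimulated IkL/L cells, 4.90 and 4.71 at 3 h and 5.28 and 5.24 at 12 h, and 6.19 and 5.93, 5.11 and 5.59, and 5.50 and 5.29 in WT cells. It fell by 0.65 at 3 h in IkL/L cells (SE 0.18, adjusted p = 0.0286) and by 0.71 in WT cells (SE 0.18, adjusted p = 0.0188). At 12 h the fall of 0.66 in WT cells passed the test (adjusted p = 0.0277), and the difference of -0.20 in IkL/L cells did not (adjusted p = 0.615). These Hk1 calls were lost in 7, 4 and 9 of 23 alternative settings, among them the mean over both of its probe sets. Hk3, a hexokinase of myeloid cells, stayed under the signal floor on all arrays.

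Of the phosphofructokinase genes, whose enzyme makes the committed step of glycolysis, Pfkp rose early and stayed up. Its signals were 9.02 and 9.14 in unstimulated IkL/L cells, 10.24 and 10.12 at 3 h and 10.60 and 10.75 at 12 h, and in WT cells 8.74 and 9.07, 10.14 and 10.32, and 10.20 and 10.42. At 3 h it was 2.15-fold higher in IkL/L cells (SE 0.15 on the log2 scale, adjusted p = 0.000426) and 2.50-fold higher in WT cells (SE 0.15, adjusted p = 0.000146). The step from 3 h to 12 h passed the test in IkL/L cells (0.50, adjusted p = 0.0463, lost in 13 of 23 alternative settings) and not in WT cells (0.09, adjusted p = 0.839). Pfkl, the liver form, was called at 12 h in WT cells (0.51, adjusted p = 0.0473) and measured 0.45 in IkL/L cells (adjusted p = 0.0781). The Pfkl call was lost in 18 of 23 alternative settings, and its 3 probe sets above the floor ranged from -0.16 to 0.51 in that comparison. Pfkm, the muscle form, was under the floor on all arrays, and its calls in IkL/L cells (-0.49 at 3 h, adjusted p = 0.0205) compare 2 levels near background.

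The 2 bifunctional enzymes that set fructose 2,6-bisphosphate, the strongest activator of phosphofructokinase, took different courses. Pfkfb3 had 4.99 and 5.44 in unstimulated IkL/L cells, 5.48 and 5.87 at 3 h and 6.35 and 6.06 at 12 h, and 5.44 and 5.55, 5.79 and 5.58, and 6.56 and 6.91 in WT cells. It was 1.98-fold higher at 12 h in IkL/L cells (SE 0.20, adjusted p = 0.00675) and 2.35-fold higher in WT cells (SE 0.20, adjusted p = 0.00171). Pfkfb4 dipped at 3 h and was back at 12 h: in IkL/L cells 4.65 and 4.72, 4.24 and 4.09, and 4.95 and 5.22, and in WT cells 5.45 and 5.74, 4.03 and 4.55, and 5.30 and 5.78 without stimulus, at 3 h and at 12 h. In WT cells the dip was at least 2.32-fold (log2 difference -1.30, adjusted p = 0.00137). In IkL/L cells it measured -0.52 (adjusted p = 0.124, and 0.0141 with the replicate block). At 12 h it measured 0.41 in IkL/L cells against unstimulated ones and passed with the block (adjusted p = 0.0487). The recovery from 3 h to 12 h passed the test in both, at 0.92 in IkL/L cells (adjusted p = 0.0132) and 1.25 in WT cells (adjusted p = 0.00414).

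From aldolase to pyruvate kinase 8 members were measured, and 7 of 8 rose at 12 h in each genotype. Of all genes 9.72% rose at 12 h in IkL/L cells and 10.1% in WT cells. The median difference of the 8 was 1.27 in IkL/L cells and 1.15 in WT cells, against 0.02 and 0.05 over all genes. At 3 h only Pgam1 and Eno2 of the 8 passed the test, both as rises and in both genotypes. Of all genes 9.82% rose at 3 h in IkL/L cells and 9.15% in WT cells. Pgam1, phosphoglycerate mutase, had 7.78 and 8.09 in unstimulated IkL/L cells, 9.26 and 9.43 at 3 h and 9.12 and 9.19 at 12 h, and 7.77 and 7.67, 9.15 and 9.17, and 9.19 and 8.81 in WT cells. It was 2.65-fold higher at 3 h in IkL/L cells (SE 0.15, adjusted p = 0.000142) and 2.72-fold higher in WT cells (SE 0.15, adjusted p = 0.000116). Thus its 3 h and 12 h arrays lay close together and well above the unstimulated ones. The 12 h level differed from the 3 h level by -0.19 in IkL/L cells (adjusted p = 0.525) and -0.16 in WT cells (adjusted p = 0.666).

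Aldoa, which cleaves fructose 1,6-bisphosphate, measured -0.02 in IkL/L cells (adjusted p = 0.961) and 0.13 in WT cells (adjusted p = 0.706) at 3 h. Its signals were 10.79 and 10.98 in unstimulated IkL/L cells, 10.77 and 10.95 at 3 h and 11.88 and 12.11 at 12 h, and 10.52 and 10.70, 10.62 and 10.87, and 11.64 and 11.95 in WT cells. Against unstimulated cells it was 2.16-fold higher at 12 h in IkL/L cells (SE 0.16, adjusted p = 0.000878) and 2.28-fold higher in WT cells (SE 0.16, adjusted p = 0.000511). All 5 of its probe sets rose at 12 h in each genotype. Aldoc, the brain form, was near the floor before stimulation and at 3 h, and at 12 h had 5.05 and 4.28 in IkL/L cells and 4.53 and 4.56 in WT cells, at least 1.37-fold higher in IkL/L cells (adjusted p = 0.000721) and at least 1.26-fold in WT cells (adjusted p = 0.00142).

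Tpi1 and Pgk1, triosephosphate isomerase and the first ATP-yielding enzyme, followed the late course of Aldoa. Tpi1 had 8.13 and 7.71 in unstimulated IkL/L cells, 8.11 and 7.80 at 3 h and 9.28 and 9.22 at 12 h, and 8.0 and 8.26, 8.26 and 8.27, and 9.37 and 9.09 in WT cells. It was 2.52-fold higher at 12 h in IkL/L cells (SE 0.17, adjusted p = 0.000576) and 2.15-fold higher in WT cells (SE 0.17, adjusted p = 0.00143). Pgk1 had 10.51 and 10.50 in unstimulated IkL/L cells, 10.58 and 10.76 at 3 h and 11.51 and 11.69 at 12 h, and 10.06 and 10.29, 10.34 and 10.65, and 11.28 and 11.28 in WT cells. For each of the 2 genes all 3 probe sets rose at 12 h in each genotype. Pgk1 was 2.14-fold higher at 12 h in IkL/L cells (SE 0.14, adjusted p = 0.000538) and 2.16-fold higher in WT cells (SE 0.14, adjusted p = 0.000419). Without WT replicate 1 in all conditions Tpi1 lost its WT call at 12 h (adjusted p = 0.105), while that of Pgk1 passed in all 23 alternative settings.

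The enolases differed in timing. Eno2, the neuronal form, rose at 3 h and had come down at 12 h: in IkL/L cells 2.96 and 3.48, 5.14 and 5.39, and 3.57 and 3.93, and in WT cells 2.84 and 2.85, 4.04 and 4.49, and 3.11 and 3.42 without stimulus, at 3 h and at 12 h. Its 3 h level was at least 2.08-fold higher than unstimulated in IkL/L cells (log2 difference 2.04, adjusted p = 0.000127) and at least 1.04-fold higher in WT cells (1.43, adjusted p = 0.00103), and 1 of the 2 WT arrays at 3 h was itself under the floor. At 12 h all arrays were back under the floor, at least 2.08-fold lower than at 3 h in IkL/L cells (adjusted p = 0.0012) and at least 1.04-fold lower in WT cells (adjusted p = 0.0151). Between 12 h and unstimulated cells, which are levels near background on both sides, it measured 0.53 in IkL/L cells (adjusted p = 0.146, and 0.0172 with the replicate block) and 0.42 in WT cells (adjusted p = 0.254, and 0.0474 with the block). Eno3, the muscle form, had 5.41 and 5.91 in unstimulated IkL/L cells, 5.20 and 5.21 at 3 h and 7.64 and 6.47 at 12 h, and 5.39 and 5.82, 5.35 and 5.44, and 6.75 and 6.85 in WT cells. It was 2.62-fold higher at 12 h in IkL/L cells (SE 0.32, adjusted p = 0.0121) and 2.29-fold higher in WT cells (SE 0.32, adjusted p = 0.024). Leaving out 1 of the 2 IkL/L arrays at 12 h gave a difference of 0.81 without replicate 1 and 1.98 without replicate 2, and the call was lost when all 3 arrays of IkL/L replicate 1 were left out (0.56, adjusted p = 0.219).

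Pkm, pyruvate kinase, closed the pathway with the largest IkL/L rise at 12 h. Its signals were 8.14 and 8.27 in unstimulated IkL/L cells, 8.87 and 8.64 at 3 h and 9.98 and 10.01 at 12 h, and 8.50 and 8.38, 8.88 and 8.80, and 9.78 and 9.11 in WT cells. It was 3.46-fold higher at 12 h in IkL/L cells (SE 0.19, adjusted p = 0.00019) and 2.01-fold higher in WT cells (SE 0.19, adjusted p = 0.0042), and the difference between the genotypes' responses is given further on. At 3 h it measured 0.55 in IkL/L cells (adjusted p = 0.0726, and 0.0294 with the replicate block) and 0.40 in WT cells (adjusted p = 0.217). The step from 3 h to 12 h was 1.24 in IkL/L cells (adjusted p = 0.00182) and 0.60 in WT cells (adjusted p = 0.0785, and 0.0285 with the block). The single Pkm probe set does not separate the splice forms.

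**Figure D2:**
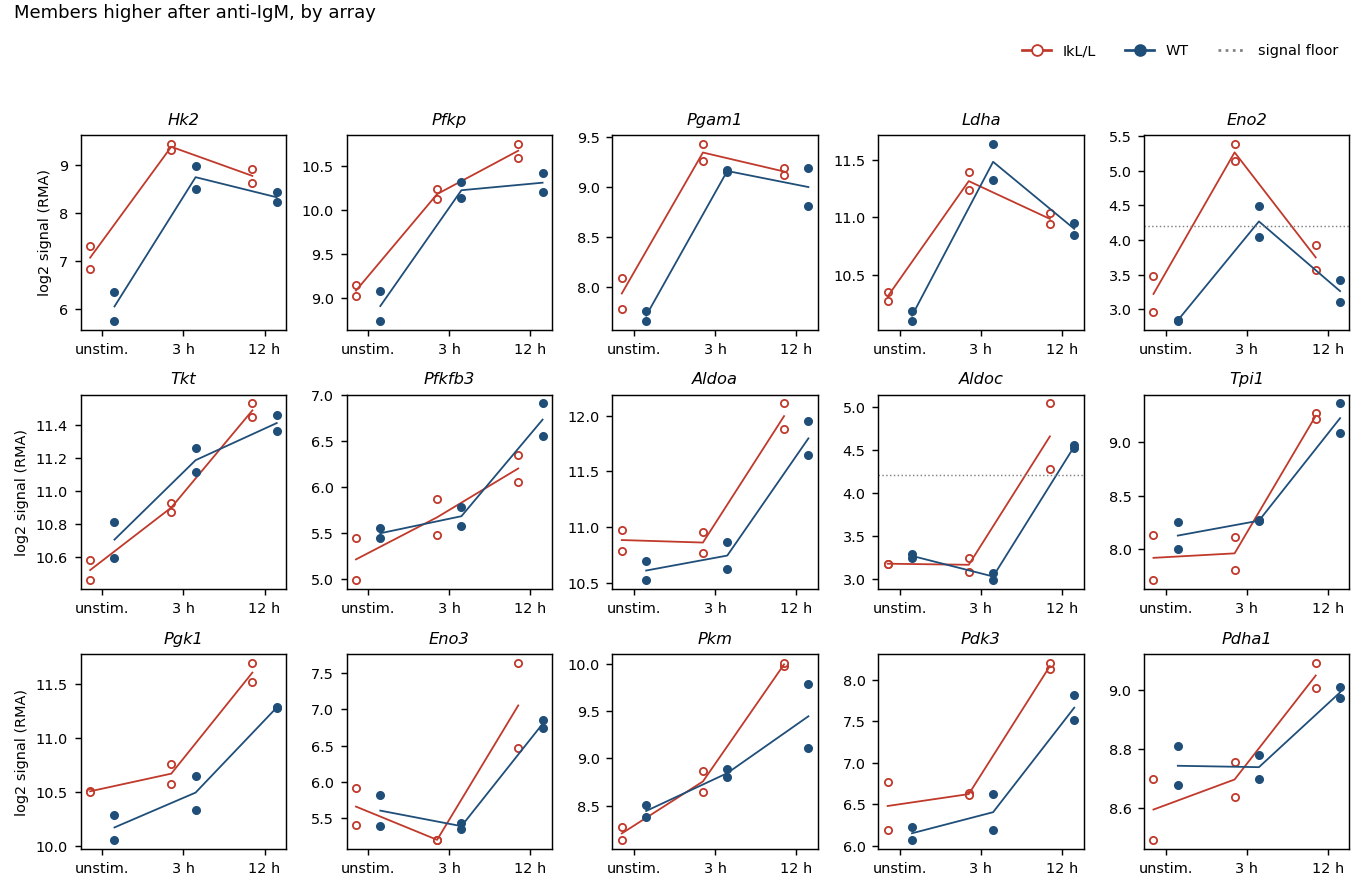
Log2 signal (vertical axis, a scale of its own in each panel) of 15 members in unstimulated cells and after 3 h and 12 h of anti-IgM (horizontal axis). Open red points are the 2 IkL/L arrays and filled blue points the 2 WT arrays of a condition, lines join group means, and the dotted line is the signal floor of 4.21. Hk2, Pfkp, Pgam1, Ldha and Tkt are up by 3 h, Eno2 peaks at 3 h, and Aldoa, Aldoc, Tpi1, Pgk1, Eno3 and Pdk3 lie apart from the unstimulated arrays at 12 h.

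Among the 6 lactate and pyruvate genes, Ldha, which makes lactate, rose first. It had 10.27 and 10.35 in unstimulated IkL/L cells, 11.40 and 11.24 at 3 h and 11.04 and 10.94 at 12 h, and 10.18 and 10.10, 11.64 and 11.33, and 10.95 and 10.85 in WT cells. At 3 h it was 2.01-fold higher in IkL/L cells (SE 0.13, adjusted p = 0.000356) and 2.55-fold higher in WT cells (SE 0.13, adjusted p = 7.18e-05). At 12 h all arrays were still above the unstimulated ones, at 1.60-fold in IkL/L cells (adjusted p = 0.00492) and 1.69-fold in WT cells (adjusted p = 0.00227). The drop from 3 h to 12 h passed the test in WT cells (-0.59, adjusted p = 0.017) and measured -0.33 in IkL/L cells (adjusted p = 0.135). Ldhb, the form that favours pyruvate, lay at or under the floor, and its call at 3 h in WT cells (0.50, adjusted p = 0.043) was lost in 13 of 23 alternative settings.

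The kinases that switch off pyruvate dehydrogenase went opposite ways. Pdk1 had 6.06 and 6.73 in unstimulated IkL/L cells, 5.23 and 5.05 at 3 h and 6.04 and 5.90 at 12 h, and 6.83 and 6.67, 5.73 and 5.51, and 5.74 and 5.95 in WT cells. It fell by 1.26 at 3 h in IkL/L cells (SE 0.20, adjusted p = 0.00134) and by 1.13 in WT cells (SE 0.20, adjusted p = 0.00257). At 12 h it was lower by 0.91 in log2 in WT cells (log2 difference -0.91, adjusted p = 0.00963) and measured -0.43 in IkL/L cells (adjusted p = 0.213). The IkL/L difference passed as the mean of the probe sets (-0.73, adjusted p = 0.000381), with housekeeping scaling (-0.69, adjusted p = 0.0472) and without replicate 1 of unstimulated IkL/L cells (-0.77, adjusted p = 0.0175). It also passed with all 3 arrays of IkL/L replicate 1 left out (-0.84, adjusted p = 0.0495). Its 3 probe sets above the floor all fell at 3 h in each genotype, and at 12 h 3 of 3 fell in WT cells and 1 of 3 in IkL/L cells. Pdk3 had 6.19 and 6.77 in unstimulated IkL/L cells, 6.64 and 6.61 at 3 h and 8.13 and 8.20 at 12 h, and 6.07 and 6.23, 6.62 and 6.19, and 7.81 and 7.51 in WT cells. It was 3.21-fold higher at 12 h in IkL/L cells (SE 0.20, adjusted p = 0.000383) and 2.85-fold higher in WT cells (SE 0.20, adjusted p = 0.00058). Both Pdk3 calls at 12 h passed in all 23 alternative settings, those without WT replicate 1 included. Pdha1, the E1 alpha subunit that these kinases act on, was called at 12 h in IkL/L cells (0.46, adjusted p = 0.0215) and measured 0.25 in WT cells (adjusted p = 0.199), and its other probe set rose more, by 1.17 in IkL/L cells and 0.94 in WT cells at 12 h.

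In the pentose phosphate pathway 6 members were measured, and the 2 enzymes that shuttle carbon back to glycolysis, Tkt and Taldo1, changed at 3 h in both genotypes. Tkt, transketolase, had 10.46 and 10.58 in unstimulated IkL/L cells, 10.87 and 10.93 at 3 h and 11.45 and 11.53 at 12 h, and 10.59 and 10.81, 11.12 and 11.26, and 11.37 and 11.46 in WT cells. It was 1.96-fold higher at 12 h in IkL/L cells (SE 0.12, adjusted p = 0.000411) and 1.64-fold higher in WT cells (SE 0.12, adjusted p = 0.00206). The smaller rise at 3 h in IkL/L cells (0.38, adjusted p = 0.0478) was lost in 18 of 23 alternative settings, and that in WT cells (0.48, adjusted p = 0.0158) in 5. Taldo1, transaldolase, dipped at 3 h: in IkL/L cells 10.06 and 9.98, 9.09 and 9.06, and 10.27 and 10.45, and in WT cells 10.15 and 9.97, 9.39 and 9.69, and 10.33 and 10.05 without stimulus, at 3 h and at 12 h. It fell by 0.95 at 3 h in IkL/L cells (SE 0.14, adjusted p = 0.000993) and by 0.52 in WT cells (SE 0.14, adjusted p = 0.0292), and rose again from 3 h to 12 h by 1.28 in IkL/L cells (adjusted p = 0.000335) and 0.65 in WT cells (adjusted p = 0.017). The 2 WT calls for Taldo1 were each lost in 7 of 23 alternative settings.

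Pgls, the lactonase of the oxidative arm, had 7.73 and 8.01 in unstimulated IkL/L cells, 7.13 and 7.24 at 3 h and 7.97 and 8.08 at 12 h, and 7.53 and 7.87, 7.33 and 7.59, and 8.16 and 8.49 in WT cells. It fell by 0.68 at 3 h in IkL/L cells (SE 0.17, adjusted p = 0.0161) and was 1.55-fold higher at 12 h in WT cells (SE 0.17, adjusted p = 0.0261). Pgd, the second NADPH-yielding enzyme, was not called in the fit without a block: it measured 0.47 at 3 h in WT cells (adjusted p = 0.0836, and 0.033 with the block) and 0.43 at 12 h (adjusted p = 0.115, and 0.0489 with the block). As the mean of its probe sets it passed at 3 h in WT cells (0.47, adjusted p = 0.0249). The 3 h difference in WT cells also passed when either WT array at 12 h was left out (adjusted p = 0.0482 each time). The 12 h difference passed without WT replicate 1 at 12 h (0.64, adjusted p = 0.0375). Of its 4 probe sets, 1 rose at 3 h in WT cells and 1 at 3 h and at 12 h in IkL/L cells. Rpe, an epimerase, measured 0.49 at 12 h in IkL/L cells (adjusted p = 0.222, and 0.0344 with the block) and 0.46 in WT cells (adjusted p = 0.247, and 0.0445 with the block). Rpia, Hk3 and Pdk2 changed in no time comparison with or without the block within genotype.

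Hif1a, the oxygen-regulated HIF subunit, had 8.75 and 8.48 in unstimulated IkL/L cells, 8.21 and 8.17 at 3 h and 8.43 and 8.63 at 12 h, and 8.86 and 8.67, 8.65 and 8.29, and 8.13 and 7.74 in WT cells. At 12 h it was 1.78-fold lower in WT cells (log2 difference -0.83, SE 0.18, adjusted p = 0.00753) and measured -0.09 in IkL/L cells (adjusted p = 0.86), where its second probe set above the floor measured -0.45. At 3 h it measured -0.43 in IkL/L cells (adjusted p = 0.134, and 0.041 with the replicate block) and -0.29 in WT cells (adjusted p = 0.356). The second probe set measured -0.05 in IkL/L cells and -0.22 in WT cells at 3 h. The WT step from 3 h to 12 h was -0.54 (adjusted p = 0.0893, and 0.021 with the block). These are transcript levels only, and HIF is known to be set largely through the stability of this protein.

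**Figure D3:**
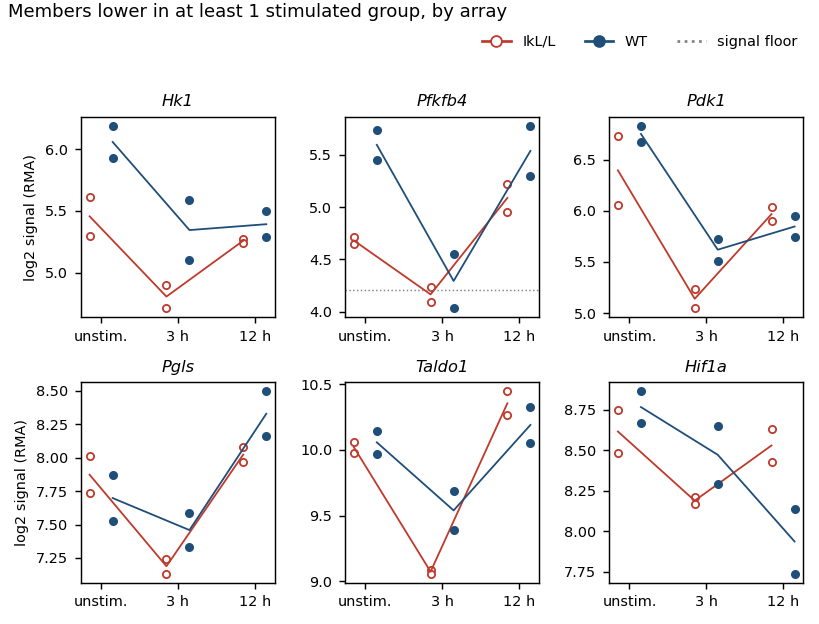
Log2 signal (vertical axis, a scale of its own in each panel) of 6 members that were lower than unstimulated in at least 1 stimulated group. Open red points are the 2 IkL/L arrays and filled blue points the 2 WT arrays of a condition, lines join group means, and the dotted line is the signal floor of 4.21. Hk1, Pfkfb4, Pdk1, Pgls and Taldo1 have their lowest group mean at 3 h in both genotypes, and WT Hif1a has its lowest at 12 h.

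Set directly against the 3 h arrays, 14 members were higher at 12 h (9.12% of all genes) and 1 lower (6.42% of all genes) in IkL/L cells, and 10 were higher (6.5% of all genes) and 2 lower (4.33% of all genes) in WT cells. The 9 members higher in both were Pfkfb4, Aldoa, Aldoc, Tpi1, Pgk1, Eno3, Pdk3, Pgls and Taldo1, and Eno2 was lower in both. The median step over the 29 members was 0.48 in IkL/L cells and 0.23 in WT cells, against 0.05 and 0.02 over all genes. Without WT replicate 1 in all conditions 2 of the 12 WT calls were left, and without WT replicate 2 a single one, at 1 WT array per group.

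The members were also compared between the genotypes. By the Xist and Eif2s3y signals given above, WT replicate 1 alone had the female pattern, and all IkL/L arrays were like WT replicate 2. Sex is thus partly confounded with genotype and adds to the spread between WT replicates, and its part was not tested. No member passed the test for IkL/L against WT cells in unstimulated cells (1.13% of all genes called), at 3 h (1.7% of all genes) or at 12 h (0.616% of all genes) in limma, with 6, 6 and 7 of 29 members at an unadjusted p under 0.05, against 10.8%, 12.7% and 9.99% of all genes. The lowest adjusted p were 0.0808 for Pfkfb4 (-0.92) and 0.0944 for Hk2 (1.01) in unstimulated cells and 0.0548 for Eno2 (at least 1.88-fold) at 3 h. With a replicate block within genotype these 3 passed, at adjusted p of 0.00499, 0.0234 and 0.0031. That block takes the spread between replicates of a genotype out of the error. A comparison between genotypes rests on that spread, so the blocked p-values for genotype, here and below, are too small.

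Averaged over the 3 conditions, Hk2 and Eno2 were higher in IkL/L cells (3.41% of all genes were higher) and Hk1 and Pfkfb4 lower (2.67% of all genes were lower). Hk2 was 1.62-fold higher in IkL/L cells (log2 difference 0.70, SE 0.14, adjusted p = 0.0161), with IkL/L above WT on all array pairs in unstimulated cells, at 3 h and at 12 h. Eno2, which had arrays above the floor at 3 h alone, measured 0.62 (adjusted p = 0.0179), Hk1 -0.42 (adjusted p = 0.0431) and Pfkfb4 -0.50 (adjusted p = 0.0387). Pgk1 measured 0.28 (adjusted p = 0.0803, and 0.0306 with the block). This average counts the 3 arrays of a replicate as independent. When each replicate was first averaged over its 3 conditions, an alternative chosen after seeing the data that sets 2 values against 2, no member passed: the adjusted p were 0.174 for Hk2, 0.26 for Eno2, 0.212 for Hk1 and 0.341 for Pfkfb4, 8 of 29 members and 11.6% of all genes had an unadjusted p under 0.05, and 5 of 18193 genes passed. Without WT replicate 1 in all conditions 2 members passed. The Hk1 call was lost in 18 of 24 alternatives.

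**Figure D4:**
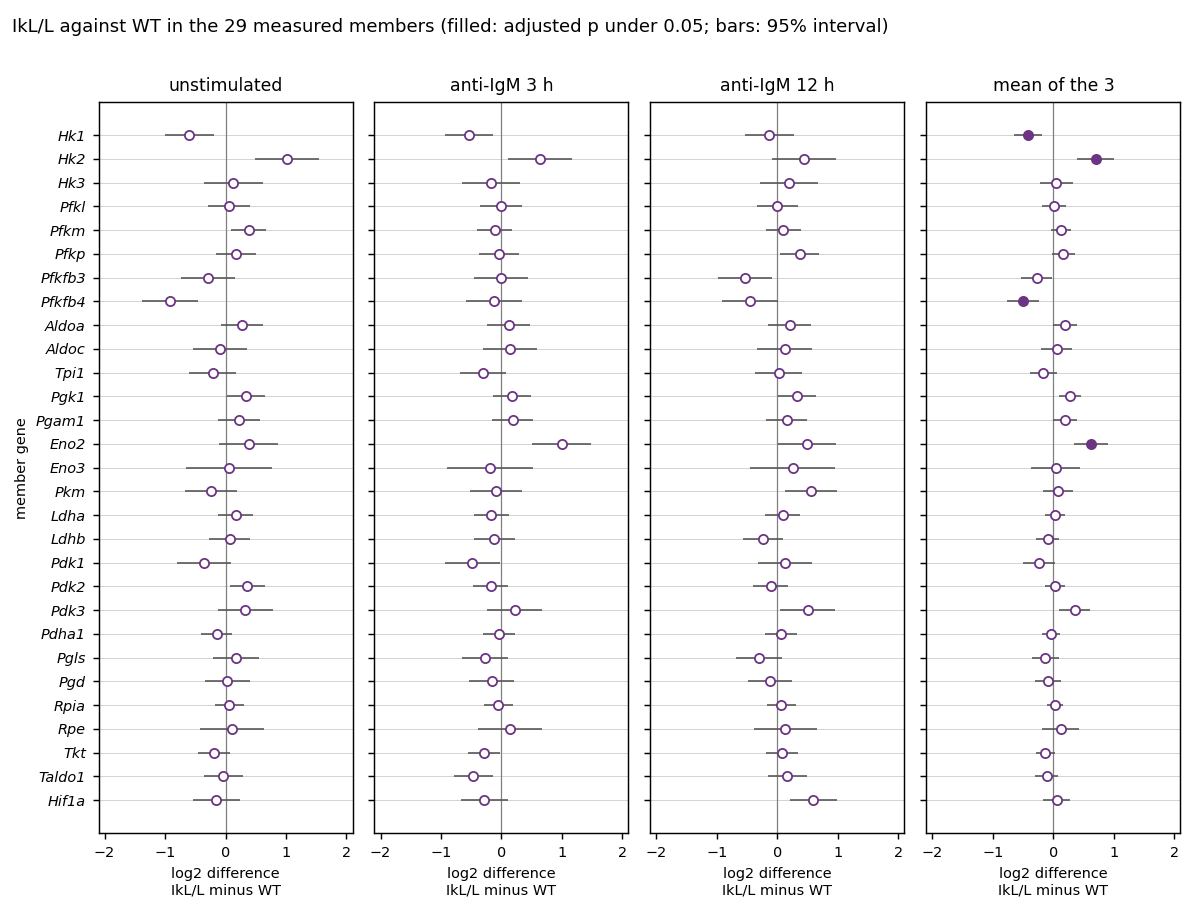
Log2 difference of IkL/L minus WT (horizontal axis) for the 29 measured members (rows) in unstimulated cells, at 3 h and 12 h of anti-IgM, and averaged over the 3 conditions. Bars are 95% intervals from limma and filled points pass an adjusted p of 0.05. Filled points are Hk1, Hk2, Pfkfb4 and Eno2 in the averaged comparison, and none in the single conditions.

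The response itself was tested for a difference between genotypes. No member passed at 3 h (0.0385% of all genes called) or at 12 h (0.022% of all genes) in limma, and 3 of 29 members had an unadjusted p under 0.05 at each time, against 5.65% of all genes at 3 h and 6.19% at 12 h. The largest differences at 12 h were for Pkm (0.79, 95% interval 0.18 to 1.39, adjusted p = 0.697) and Hif1a (0.74, 95% interval 0.19 to 1.30, adjusted p = 0.675). Without WT replicate 1 at 12 h the Pkm difference was 1.13 and without WT replicate 2 at 12 h it was 0.45, and without WT replicate 1 at 12 h Pkm passed for IkL/L against WT at 12 h (0.89, adjusted p = 0.0408). The second Hif1a probe set above the floor measured 0.31 for the same difference in response. At 3 h the largest was for Pfkfb4 (0.79, 95% interval 0.13 to 1.44, adjusted p = 0.784). The 95% interval reached a median of 0.54 to either side of the estimate at each time, so the arrays could not separate smaller differences in response from none. That interval is not adjusted over all genes, and the differences of 0.74 to 0.79 above did not pass either. Larger differences than 0.54 can therefore also go uncalled. For Aldoa, Tpi1 and Pgk1 at 12 h the response in IkL/L cells minus that in WT cells was -0.07, 0.23 and -0.01, all with an interval that includes 0.

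Around the enzymes, the carriers of glucose, lactate and pyruvate included single genes with large changes. Slc16a1, a lactate carrier, had 6.93 and 7.16 in unstimulated IkL/L cells, 9.78 and 9.58 at 3 h and 8.87 and 8.50 at 12 h, and 6.77 and 6.22, 9.25 and 8.63, and 8.60 and 7.39 in WT cells. It was 6.21-fold higher at 3 h in IkL/L cells (adjusted p = 0.000491) and 5.46-fold higher in WT cells (adjusted p = 0.000804). Its partner Bsg was 3.09-fold higher at 12 h in IkL/L cells (adjusted p = 0.000212) and had 8.39 and 8.53 at 12 h and 7.27 and 7.43 without stimulus in WT cells. Slc2a6, a hexose carrier of the glucose transporter family, fell by 2.16 at 3 h in IkL/L cells (adjusted p = 0.00132) and by 2.41 in WT cells (adjusted p = 0.000699). In all, 3 of 15 measured carriers rose and 1 fell at 3 h in IkL/L cells, against 2 and 1 in WT cells, and at 12 h 3 rose and 2 fell in IkL/L cells, against 3 and 3 in WT cells. Over all genes 9.82% rose and 10.6% fell at 3 h in IkL/L cells and 9.15% and 10.2% in WT cells. At 12 h 9.72% of all genes rose and 7.87% fell in IkL/L cells, and 10.1% and 8.66% in WT cells.

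Downstream of pyruvate, 8 of 19 measured tricarboxylic acid cycle genes rose and 0 fell at 12 h in IkL/L cells, and 6 rose and 0 fell in WT cells, beside 9.72% and 10.1% of all genes that rose. At 3 h 2 rose and 4 fell in IkL/L cells and 3 rose and 3 fell in WT cells. Of all genes 9.82% rose and 10.6% fell at 3 h in IkL/L cells, and 9.15% and 10.2% in WT cells. The share of all genes that fell at 12 h was 7.87% in IkL/L cells and 8.66% in WT cells. These shares also apply to the lists that follow. Idh2, the NADP-linked mitochondrial isocitrate dehydrogenase, was at least 4.32-fold higher at 12 h than at 3 h in IkL/L cells (adjusted p = 0.000299) and 3.12-fold higher in WT cells (adjusted p = 0.00198). Of 7 other pyruvate dehydrogenase genes, 3 rose at 3 h in IkL/L cells and 1 in WT cells, and 2 rose at 12 h in each, while 1 fell at 12 h in IkL/L cells. Pdp1, the phosphatase that opposes the Pdk kinases, was 2.49-fold higher at 3 h in IkL/L cells (adjusted p = 0.0038) and 2.25-fold higher in WT cells (adjusted p = 0.0075). Dlat, the E2 subunit, was 2.87-fold higher at 12 h in IkL/L cells (adjusted p = 0.000256) and 1.79-fold higher in WT cells (adjusted p = 0.00612). Of 16 other isozymes of the same steps, 3 rose and 3 fell at 3 h in IkL/L cells and 3 rose and 2 fell in WT cells, and at 12 h 0 changed in IkL/L cells and 1 rose and 1 fell in WT cells.

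**Figure D5:**
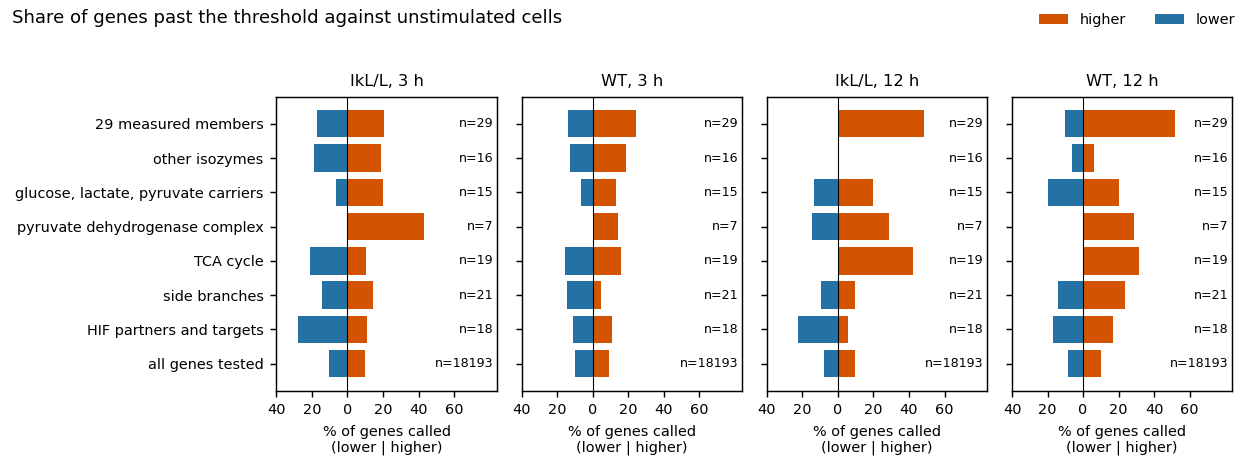
Share of the measured genes of each list (percent, horizontal axis) that passed an adjusted p of 0.05 against unstimulated cells, higher to the right and lower to the left, in IkL/L and WT cells at 3 h and 12 h. The number of measured genes stands at the right of each row. At 12 h the 29 members have 48.3% higher in IkL/L cells and 51.7% in WT cells, against 9.72% and 10.1% of all genes.

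Of the regulators known to act on these genes, Myc peaked at 3 h. Its signals were 8.82 and 9.66 in unstimulated IkL/L cells, 11.31 and 11.49 at 3 h and 9.76 and 9.92 at 12 h, and 8.70 and 8.50, 11.61 and 11.16, and 9.96 and 9.69 in WT cells. It was 4.45-fold higher at 3 h in IkL/L cells (adjusted p = 0.000206) and 6.91-fold higher in WT cells (adjusted p = 5.4e-05). At 12 h it measured 0.60 in IkL/L cells (adjusted p = 0.153) and 1.23 in WT cells (adjusted p = 0.00626). Txnip, which restrains glucose uptake, had 9.51 and 8.63 in unstimulated IkL/L cells, 8.35 and 7.13 at 3 h and 7.15 and 7.08 at 12 h, and 9.99 and 10.02, 8.28 and 7.92, and 7.36 and 7.42 in WT cells. It was lower at 12 h by 1.95 in log2 in IkL/L cells (log2 difference -1.95, adjusted p = 0.00406) and by 2.62 in WT cells (log2 difference -2.62, adjusted p = 0.00066).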

How the data were processed

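Transcripts were measured on 12 Affymetrix arrays, labelled from 100 ng of total RNA each, per the labels' protocols. The authors deposited log2 signals. The submitters' processing notes name RMA without a version, and its normalisation was kept as deposited. Titles of the samples gave the groups and replicate numbers. Of 45037 probe sets, 34945 carry a single gene symbol in the platform annotation and were used, and 9160 are unlisted there and named no gene here. Arrays have no read depth, so their number limits the precision, and no level is set against that of another probe set.

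All arrays entered 1 limma 3.58.1 fit under R 4.3.3 with a mean per group (6 residual and 3.96 prior degrees of freedom). Benjamini-Hochberg adjustment ran over 18193 genes in each of 12 comparisons. "At least" marks folds whose lower group had an array under the floor, which was raised to it. The fit was tested for recovering planted differences on simulated data with independent errors. Those data held no replicate effect, so they do not check the p-values of paired arrays. Members and gene lists were chosen with earlier results of these data known. Members named are the measured ones of the list, and in the other lists up to 3 genes with the largest called changes in a comparison. Values for Txnip, Bsg and others in comparisons where they were not among those 3 are added for completeness.

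Deviations of same-numbered arrays from their group means, over 6065 bright genes, correlated at 0.354 to 0.49 within IkL/L and 0.546 to 0.619 within WT, and at 0.026 to 0.31 across genotypes. The numbers therefore pair arrays within a genotype, and a fit with the replicate block within genotype was run beside the unblocked one. Alternatives covered 2 blocks, probe set choice, dim genes, scaling, an intensity trend and replicates left out. Fitting every single-symbol probe set on its own, and averaging replicates over conditions, were chosen after seeing the data, as was the signal floor. Promoter windows are RefSeq's, and figures were drawn with matplotlib 3.10.9.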

Additional observations from a re-analysis of the deposited data

How the results depend on the processing

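Of 85 calls of a member in a comparison, 36 passed under every alternative run for them (23 settings, and a further one for the average of the genotypes), and none reversed. The replicate block within genotype or shared by both genotypes lost 0 of the 85. The block within genotype added 16 calls in 8 members, whose blocked p stands in the report, raised the members called for IkL/L against WT to 2 in unstimulated cells and 1 at 3 h, and changed no other call. The shared block gave 1 and 1 in limma, Pfkfb4 in unstimulated cells (adjusted p = 0.0198) and Eno2 at 3 h (adjusted p = 0.00455). The genotype calls of the block within genotype leave out the spread between replicates and so overstate the evidence. At 3 h Eno2 was also the 1 member called with the dimmest genes removed and with an intensity trend. Housekeeping scaling lost 20 of the 85 and left 2 of the 4 members in the average of the genotypes (Hk2 and Eno2). It moved the median of all genes to -0.24 at 12 h in IkL/L cells and -0.07 in WT cells, and the share of calls that were higher to 25.5% and 41.2%, against 55.3% and 53.9% before. For 12 h against 3 h it moved that median to -0.25 in IkL/L cells and -0.11 in WT cells, and the share to 23.9% and 40.6%, against 58.7% and 60% before, and median centring moved the IkL/L share to 45.3%. For the genotype difference of the 12 h response the median became -0.16. The share higher for IkL/L against WT in unstimulated cells was 42.3% with median centring and 63% with housekeeping scaling, against 52.7%, and at 3 h 62.6% with housekeeping scaling, against 49%. For the genotype difference of the 3 h response it was 83.3% and 50%, against 71.4% of 7 calls. The causes were not tested. Over all genes, the block within genotype raised the calls for IkL/L against WT to 717 in unstimulated cells, 935 at 3 h, 467 at 12 h and 2371 on average, against 205, 310, 112 and 1107 without it. It raised WT cells at 12 h against 3 h to 3090, against 1970, and the differences in response to 27 at 3 h and 26 at 12 h, against 7 and 4. The shared block gave 400, 572, 187, 1763, 11 and 19 for the same genotype comparisons. Housekeeping scaling gave 127 in unstimulated cells, 47 at 12 h and 2 for each response, the mean of probe sets gave 2 and 13 for the responses, removing dim genes 2 at 3 h, and the intensity trend 7 at 12 h. Averaging each replicate over its conditions left 0 of the 4 members, and 5 genes in all passed. Leaving out arrays, singly or a whole replicate of a genotype, moved the members called between 6 and 13 for WT at 3 h, 10 and 17 for WT at 12 h, 1 and 12 for WT at 12 h against 3 h, 6 and 12 for IkL/L at 3 h, 11 and 15 for IkL/L at 12 h, and 7 and 15 for IkL/L at 12 h against 3 h. The lowest of each came without a whole replicate, which leaves 1 array per group that is assumed to vary like the other groups. For IkL/L against WT the range was 0 to 1 at 3 h, 0 to 1 at 12 h and 0 to 4 on average. In the average, 0 came without IkL/L replicate 2 at 12 h, without it in all conditions, or without WT replicate 2 in all conditions. Signals near the floor limit Eno2, Aldoc, Pfkfb4, Ldhb, Hk3, Pfkm and Pdk2.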

Other observations

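Beside the enzymes, 18 HIF partners and targets outside glycolysis were measured. Of these 2 rose and 5 fell at 3 h in IkL/L cells, 2 rose and 2 fell in WT cells, and at 12 h 1 rose and 4 fell in IkL/L cells and 3 rose and 3 fell in WT cells. Over all genes 9.82% rose and 10.6% fell at 3 h in IkL/L cells, 9.15% and 10.2% in WT cells, and at 12 h 9.72% and 7.87% in IkL/L cells and 10.1% and 8.66% in WT cells. Adm, the peptide adrenomedullin, had 7.84 and 8.03 in unstimulated IkL/L cells, 9.67 and 9.45 at 3 h and 8.29 and 8.68 at 12 h, and 6.00 and 6.03, 8.54 and 8.89, and 7.47 and 7.67 in WT cells. It was 3.78-fold higher in IkL/L than in WT cells without stimulus (log2 difference 1.92, adjusted p = 0.00118 in limma) and 1.80-fold higher at 3 h (adjusted p = 0.041). Vegfa, a vascular growth factor, was at least 4.29-fold higher at 3 h than unstimulated in IkL/L cells (adjusted p = 5.66e-05) and at least 3.97-fold higher in WT cells (adjusted p = 1.56e-05). Mxi1, a Myc antagonist and HIF target, fell by 2.23 at 3 h in IkL/L cells (adjusted p = 5.39e-05) and by 2.11 in WT cells (adjusted p = 7.36e-05).

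Side branches of glycolysis changed in both directions. Gpd1l, which links glycolysis to glycerol phosphate, fell by 2.57 at 3 h in IkL/L cells (adjusted p = 3.07e-05) and by 2.17 in WT cells (adjusted p = 8.14e-05), and at 3 h it was lower in IkL/L than in WT cells (log2 difference -1.33, adjusted p = 0.0189). Gys1, glycogen synthase, was 2.32-fold higher at 12 h than at 3 h in IkL/L cells (adjusted p = 0.00503) and 2.28-fold higher in WT cells (adjusted p = 0.00819). Mpc1, a subunit of the mitochondrial pyruvate carrier, was higher in IkL/L than in WT cells on average over the 3 conditions (log2 difference 0.73, adjusted p = 0.00399), as was the glucose carrier Slc2a1 (0.45, adjusted p = 0.0322). The average counts the 3 arrays of a replicate as independent, and with each replicate averaged first neither passed (adjusted p = 0.165 for Mpc1 and 0.129 for Slc2a1).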
